A study of Mus musculus with 43 samples.

Results

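The brain transcriptome of mice labelled as Irs1 knockouts and fed ad libitum (KOAL) was set directly against that of wild-type mice under dietary restriction (WTDR), so the comparison holds 2 groups that differ in genotype and in diet at once. Its members are the table entries with the status OK and an FPKM above 0 in both brain groups and an FPKM of at least 1 in at least one of them. This rule gave 15255 of the 42349 entries in the deposited table, each a gene or a set of overlapping genes. Each group comprised 3 of the 43 libraries in the series. All mice were females of 15 months. KOAL mice were labelled as carrying a global deletion of Irs1 (Irs1-/-) and ate freely throughout. WTDR mice were labelled as wild type (Irs1+/+) and had been restricted in steps from 10 weeks of age to a final reduction of 30%, held for 12 months, with 1 meal a day in the late afternoon. Values for wild-type mice fed ad libitum (WTAL, 2 libraries) and for restricted mice labelled as knockouts (KODR, 3 libraries) are given beside the results. Because KOAL and WTDR differ in both factors, a part due to genotype and a part due to diet cannot be told apart from this comparison alone.

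IRS1 is an adaptor that binds the activated insulin and IGF-1 receptors and passes their signal on to phosphatidylinositol 3-kinase and AKT. Reduced insulin or IGF signalling in some mutants and dietary restriction can both extend life in mice. This is the reason to set a long-lived mutant and restricted wild-type mice side by side. In brain, insulin acts on neurons of the hypothalamus that govern feeding, on metabolism and on synaptic function, and the hypothalamus also makes the peptide hormones oxytocin, vasopressin and orexin and the precursor proopiomelanocortin.

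An FPKM is a fragment count scaled to transcript length and library size, here with libraries normalised by the geometric mean across samples. For each group the authors' software gave a single FPKM and a 95% confidence interval, pooled over its libraries. The spread between mice was therefore not seen, the depth of a library is unknown, and errors below derive from those intervals. A log2 difference is KOAL over WTDR with its standard error (SE), and a gene is called differentially expressed when it passes an FDR of 10% in the Wald test across all 15255 entries. That test takes a normal reference although each interval rests on 3 libraries, and no exact test can be made from pooled values. Calls are therefore given without single p values, and many of them with their errors. In bulk tissue, fewer cells of a type and less RNA per cell cannot be told apart. The tissue label held, as all 13 pan-neuronal genes examined were higher in every brain group than in any group of liver, skeletal muscle or WAT. Snap25, which encodes a protein of synaptic vesicle fusion, had an FPKM of at least 449.4 in the brain groups and of at most 3.52 elsewhere.

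Irs1 went against the genotype labels. Its FPKM was 3.49 (95% interval 1.36 to 5.61) in the group labelled KOAL and 1.62 (1.03 to 2.21) in WTDR, with 2.47 in WTAL and 4.14 in the group labelled KODR. The intervals of the compared groups overlapped, and at 1.11 (SE 0.51) on the log2 scale Irs1 was not called. The gene lies on chromosome 1 from 82233101 to 82291416 on the minus strand of GRCm38. The value covers the whole gene and is pooled over libraries. Whether it comes from a transcript that lacks the deleted part or from the labelling of samples was not tested. Every direction below is that of the groups as labelled.

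Of the 15255 entries, 74 were higher in the group labelled KOAL (0.485% of those tested) and 14 were lower (0.0918%), or 0.577% in all. The 88 entries were of 3 kinds. Copies of 2 families of small nucleolar RNA (snoRNA) on chromosome 7 made up 34 of them, 28 higher and 6 lower. Protein-coding genes made up another 34, 31 higher and 3 lower. The other 20 were further short RNAs, pseudogenes, non-coding transcripts and entries that join several genes. The median log2 difference of all tested entries was 0.18, or a fold of 1.13 in favour of KOAL, and 64.8% of the values were positive. After centring on this median, 44 entries were higher and 18 lower, and on a linear FPKM scale 43 and 18. The count depended strongly on the spread taken from the intervals. It was 880 higher and 126 lower with the SD divided by the square root of the number of libraries, and 5 higher and 1 lower with a t distribution in place of the normal. The short RNAs had very narrow intervals, and without them 21 entries were higher and 5 lower. Their small p values had therefore raised the number of other genes that passed the FDR.

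**Figure D1:**
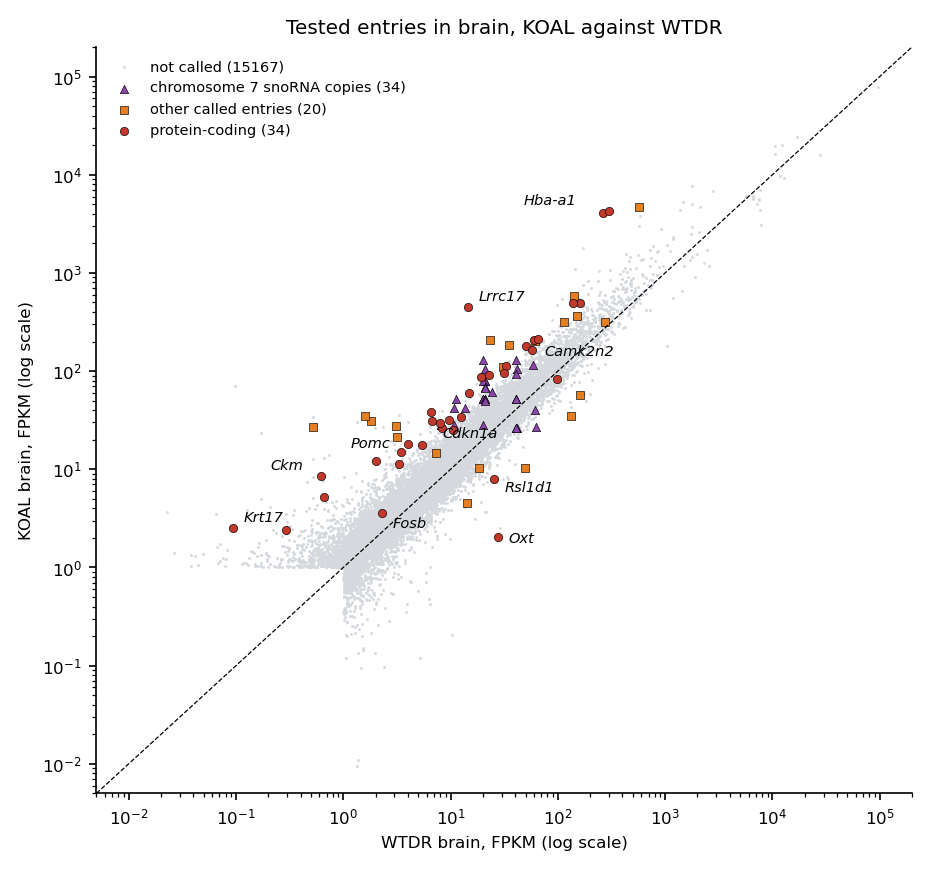
FPKM of the 15255 tested entries in WTDR brain (x axis, log scale) and KOAL brain (y axis, log scale), each point an entry and the dashed line equality. Triangles are the 34 called snoRNA copies of chromosome 7, circles the 34 called protein-coding genes and squares the other 20 called entries. Lrrc17 and Hba-a1 lie far above the line and Oxt far below it.

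The snoRNA copies lie between Ube3a and Snrpn, an imprinted region of chromosome 7 in which the long transcript Snhg14 is expressed in neurons from the paternal chromosome and hosts tandem snoRNA genes in its introns. SnoRNAs of this C/D box type guide the methylation of RNA. The 79-base family is known as Snord115 and carries a stretch complementary to the serotonin receptor transcript Htr2c. The 94-base family is Snord116, whose loss in humans is tied to Prader-Willi syndrome. The sequences are shown because many copies are identical in sequence, which sets what a value per copy can mean. In GENCODE M21 (GRCm38) the host Snhg14 runs on the minus strand from 59307924 to 59975759, and the snoRNA entries in it from 59342226 to 59923122. The most frequent sequences read 5′ to 3′ as follows, with the C box (TGATGA) and the D box (CTGA) in capitals.
79-base sequence of 33 copies, here Gm22449, chr7:59608262-59608340: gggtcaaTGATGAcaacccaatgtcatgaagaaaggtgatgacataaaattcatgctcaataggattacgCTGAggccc
79-base sequence of 23 copies, here Gm26283, chr7:59490561-59490639: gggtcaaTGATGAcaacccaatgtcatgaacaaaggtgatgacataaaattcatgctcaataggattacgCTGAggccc
94-base sequence of 16 copies, here Gm25816, chr7:59703427-59703520: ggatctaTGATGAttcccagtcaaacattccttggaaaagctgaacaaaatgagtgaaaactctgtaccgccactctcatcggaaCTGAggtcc
The 79-base sequences differ by G31C, counted from 1 at the 5′ end with the base of the 33 copies first.

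Over the 191 single-gene snoRNA entries within Snhg14, which hold 82 distinct sequences, the summed FPKM was 4231 in KOAL and 2101 in WTDR brain. It was 688.1 in WTAL and 906.8 in KODR, and each entry was listed at 0 in all 12 groups of the other tissues. Of the 191, 72 were listed at 0 in both compared groups, 71 were listed at 0 in one of them and 48 were tested. Among the 33 copies with an identical sequence, 11 were called higher and 4 lower. Gm22449 had an FPKM of 130.7 (124.2 to 137.3) in KOAL and 40.4 (37.5 to 43.3) in WTDR, a log2 difference of 1.69 (SE 0.06). Gm24866, of the same sequence, had 130.7 and 20.2 (log2 difference 2.69, SE 0.12). Another such copy, Gm25463, went the other way, with 40.4 (34.7 to 46.2) in KOAL and 60.6 (57.7 to 63.5) in WTDR (log2 difference -0.58, SE 0.11). Copies of 1 sequence were thus called in opposite directions.

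The values of these 33 copies moved in steps. In KOAL 20 of the 24 values above 0 were whole multiples of 26.1, up to 5 times, and in WTDR 23 of 28 were whole multiples of 20.2, up to 3 times (within 1%). Their median SD was 4.15% of the value in KOAL and 7.24% in WTDR, against 40.1% and 27.2% over all entries with an FPKM of at least 1. A spread so narrow on values of so few steps is a property of the authors' intervals, and the calls rested on it. In an alternative chosen after the data were seen, every SD was raised to at least the median relative SD of its group. Of the 34 snoRNA calls, 0 remained. This floor, 40.8% in KOAL and 27.8% in WTDR over tested entries, lay above the SDs of the called copies and so fixed their SEs. The outcome therefore does not tell whether the copies differ. Summed over the copies of a sequence, the first sequence had an FPKM of 1295 in KOAL and 884.9 in WTDR, the second 1286 and 271.9, and the 94-base sequence 355.9 and 97.5. These 3 sums were higher in KOAL, while some sequences with fewer copies had lower sums there, such as one of 2 copies with 0 and 56.4 and one of 3 copies with 66.6 and 78.6. No interval is given for a sum, because the errors of copies that share reads are not independent.

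**Figure D2:**
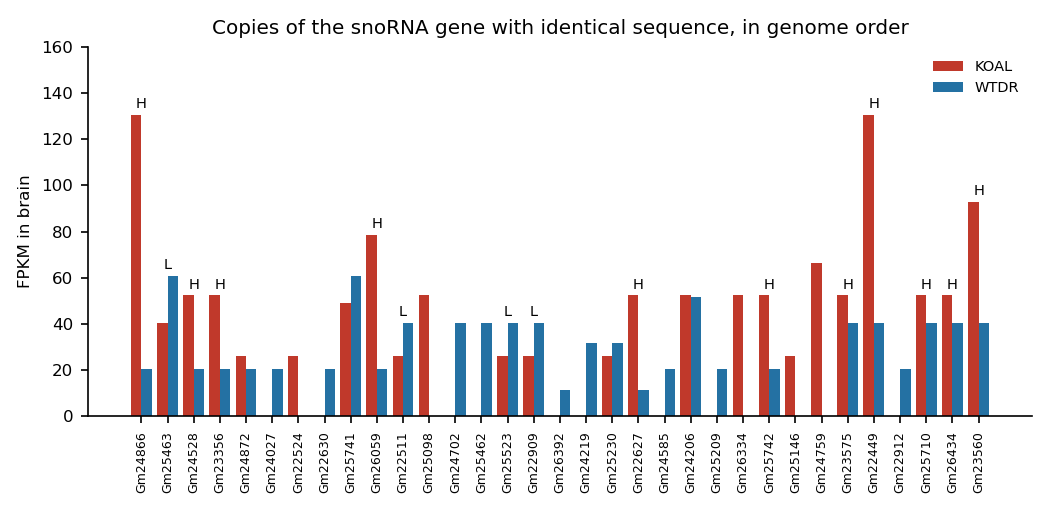
FPKM in KOAL and WTDR brain (paired bars, y axis) of the 33 snoRNA copies that share an identical sequence, in genome order along the x axis. H marks the 11 copies called higher in KOAL and L the 4 called lower. Bars repeat at a few fixed heights.

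Among protein-coding genes, Lrrc17, which encodes a secreted leucine-rich repeat protein, had the greatest difference. Its FPKM was 447.9 (27.6 to 868.3) in KOAL and 14.5 (8.21 to 20.8) in WTDR, with 4.13 in WTAL and 15.3 in KODR, and the log2 difference was 4.95 (SE 0.75). KOAL alone was high, and its interval was wide. With the SDs raised in the same way, 2 of the 88 entries still passed, Lrrc17 and the entry that joins Snhg12 with its snoRNAs. Neither passed with a t distribution, and Lrrc17 did not pass on a linear FPKM scale either.

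Camk2n2, an inhibitor of the synaptic kinase CaMKII, had an FPKM of 208.9 (116.1 to 301.7) in KOAL and 59.6 (53.1 to 66.1) in WTDR, a log2 difference of 1.81 (SE 0.33). The intervals did not meet, and the WTAL (79.4) and KODR (88.7) values lay between those of KOAL and WTDR. Kcnj11, which encodes the pore of the ATP-sensitive potassium channel, had 60.3 in KOAL and 14.8 in WTDR (log2 difference 2.03, SE 0.52), with 28.3 in WTAL and 52.6 in KODR. Kcnk12, of the two-pore potassium channel family, differed by 1.27 (SE 0.34). Crhr1, the receptor for corticotropin-releasing hormone, had 17.8 in KOAL and 5.43 in WTDR (log2 difference 1.71, SE 0.47). C1qtnf4, a secreted member of the C1q/TNF family, had 492.9 and 162.3, with 144.5 in WTAL, and differed by 1.60 (SE 0.39). Without the short RNAs Crhr1 no longer passed the FDR, while Camk2n2, Kcnj11, Kcnk12 and C1qtnf4 did.

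Cdkn1a, the cell cycle inhibitor p21 that p53 and glucocorticoids induce, was low in WTDR alone. Its FPKM was 31.0 (6.40 to 55.6) in KOAL, 27.7 in WTAL and 29.9 in KODR, against 6.72 (4.996 to 8.45) in WTDR, and the log2 difference was 2.21 (SE 0.60). It did not pass without the short RNAs. Cisd3, which encodes an iron-sulphur protein of mitochondria, was high in KOAL alone, at 87.0 against 19.1 in WTDR, 16.7 in WTAL and 22.3 in KODR (log2 difference 2.18, SE 0.45). Tmem192, a lysosomal membrane protein, had 38.7 and 6.63 (log2 difference 2.55, SE 0.40). Fosb, an activity-induced transcription factor, had 3.57 (3.21 to 3.93) and 2.29 (2.10 to 2.48). Its log2 difference of 0.64 was smaller than those of the other 30 genes called higher, and only 0.0787% of tested entries had a lower SE than its 0.09. Of the 31 protein-coding genes called higher, 23 had a WTAL value between those of KOAL and WTDR and 27 a KODR value between them, and 24 had intervals that did not overlap. The genes were picked for a wide gap between KOAL and WTDR, which by itself favours values in between. The share over all tested entries was not computed, so these counts are no result about WTAL or KODR. Without the short RNAs 18 of the 31 still passed.

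Further protein-coding genes called higher, named after their values were seen, were Rell2, Rtn2, Wnt6, Cactin, Tshz2, Hhatl, Syde1, H2afj, Plekhf1, Emc10, Krt17 and Ccdc36. Rell2 had 178.8 in KOAL and 50.4 in WTDR and Emc10 213.2 and 65.9, while Krt17 (2.51 and 0.0934) and Ccdc36 (2.38 and 0.293) were near the limit of 1. Wnt6, a secreted Wnt ligand, had 5.17 and 0.667. Among longer non-coding RNAs, Dancr had 30.8 in KOAL and 1.82 in WTDR (log2 difference 4.08, SE 1.09), and the entry joining Snhg12 with Snora44, Snora61 and Snord99 had 206.5 and 23.2 (3.15, SE 0.37). The pseudogenes Gm17383, Gm11249 and Gm13050 were called higher as well. Outside chromosome 7, short RNAs called higher were Snord82 (log2 difference 2.41), Snora21 (4.45), the snRNA genes Gm22513 (3.16), Gm24265 (2.74), Gm23924 (0.99) and Rnu2-10 (5.71), and the mitochondrial tRNA genes mt-Tr (3.03), mt-Tt (1.28) and mt-Th (0.20). Each of these genes except mt-Th and Gm23924 had an FPKM at least 2-fold higher in KOAL. Errors were wide for some of the short RNAs, with SEs of 1.62 for Rnu2-10, 1.28 for Snora21 and 0.88 for mt-Tr. The KOAL interval of mt-Tr reached down to 0.

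**Figure D3:**
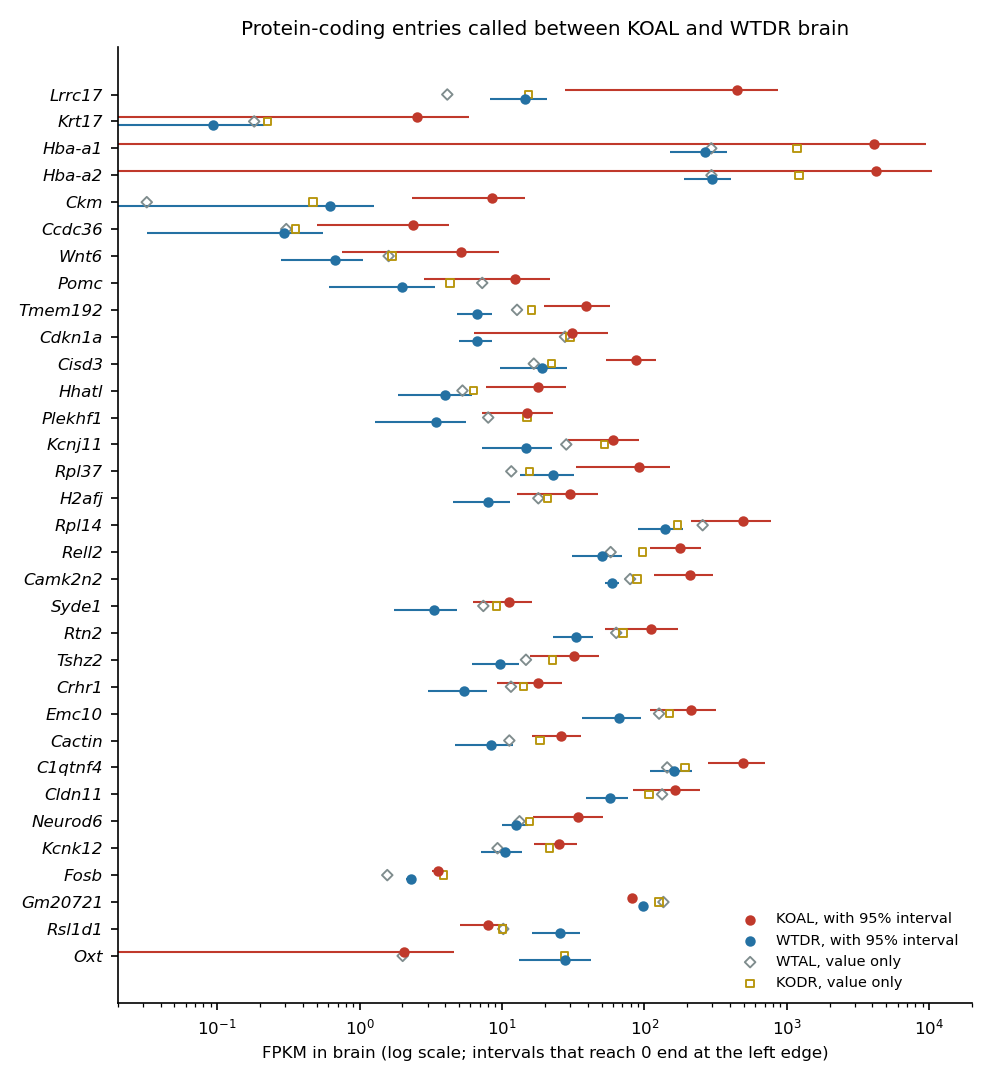
FPKM in brain (x axis, log scale) of the protein-coding genes called between KOAL and WTDR, with 1 of the 34 not shown, ordered by log2 difference. Filled circles with lines are the KOAL and WTDR values with the authors' 95% intervals, and open diamonds and squares are the WTAL and KODR values. Lrrc17 is at the top and Oxt at the bottom, where WTAL lies with KOAL and KODR with WTDR.

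Of the 3 protein-coding genes called lower, Oxt had the greatest difference. Oxt encodes oxytocin, a peptide hormone made in magnocellular neurons of the hypothalamus that also curbs feeding, and lies on chromosome 2 from 130576173 to 130577054. Its FPKM was 2.06 (0 to 4.58) in KOAL and 27.7 (13.1 to 42.4) in WTDR, 13.5-fold higher in WTDR, and the log2 difference was -3.75 (SE 0.96). WTAL had 2.01 and KODR 27.5, so that both groups fed ad libitum were near 2 and both restricted groups near 28. The differences from WTAL, a group that both share, were 0.04 (SE 1.60) for KOAL and 3.79 (SE 1.39) for WTDR. Oxt also passed without the short RNAs, but not with a t distribution.

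The 2 other genes were Rsl1d1 and Gm20721. Rsl1d1, which encodes a nucleolar protein with a ribosomal L1 domain, had 7.96 (5.04 to 10.9) in KOAL and 25.6 (16.1 to 35.2) in WTDR, with 10.2 in WTAL and 10.1 in KODR. WTDR was the high group, and the log2 difference was -1.69 (SE 0.38). Gm20721 had 82.3 and 98.2, a log2 difference of -0.26 with an SE of 0.01 that was the lowest of all 15255 entries, and 136.0 in WTAL and 126.7 in KODR. Of the other entries called lower, Snord100 had a log2 difference of -1.93, the pseudogene Gm28580 of -2.27, the miRNA gene Gm26384 of -1.63, the snRNA gene Gm22756 of -0.84 and the entry joining Mir700 and Rcan3 of -1.50.

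Vasopressin and orexin, further hypothalamic peptides, had lower values in KOAL too but did not pass. Avp had 7.94 (0 to 16.2) in KOAL and 34.6 (18.5 to 50.7) in WTDR, with 15.2 in WTAL and 86.2 in KODR (log2 difference -2.12, SE 0.82). Hcrt, the orexin precursor, had 3.10 and 16.8, with 40.3 in WTAL and 30.3 in KODR (-2.44, SE 0.99). Pmch, which encodes melanin-concentrating hormone, had 11.3 and 39.8 (-1.82, SE 1.11). Pomc, the precursor of melanocortins that reduce feeding, went the other way and was called higher, with 12.3 (2.82 to 21.7) in KOAL and 2.00 (0.610 to 3.38) in WTDR, 7.26 in WTAL and 4.30 in KODR (2.62, SE 0.75). Its intervals overlapped, and it did not pass without the short RNAs. Over the 13 tested genes of hypothalamic peptides, 1 was called higher, 1 lower and 10 had lower values in KOAL, with a median log2 difference of -1.34 beside 0.18 for all tested entries. Among all tested entries 0.577% were called, and 64.8% had higher values in KOAL. The 10 tested marker genes of the hypothalamus had a median of -0.25, with 9 lower values and 0 called, among them Nkx2-1 (0.455 and 1.49) and Otp (0.945 and 2.29), which encode hypothalamic transcription factors. The 13 tested genes of other neuropeptides had a median of -0.07 and 0 called. None of the 10 pituitary genes was tested, as all had an FPKM under 1 in both groups. Their summed FPKM was 1.62 in KOAL, 0.675 in WTDR, 21.7 in WTAL and 3.60 in KODR. The 20 listed hypothalamus marker genes summed to 95.9 in KOAL, 111.2 in WTDR, 243.8 in WTAL and 200.4 in KODR. How much of the peptide differences between the 4 groups, those of Oxt included, came with the amount of hypothalamus in a sample was not tested.

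**Figure D4:**
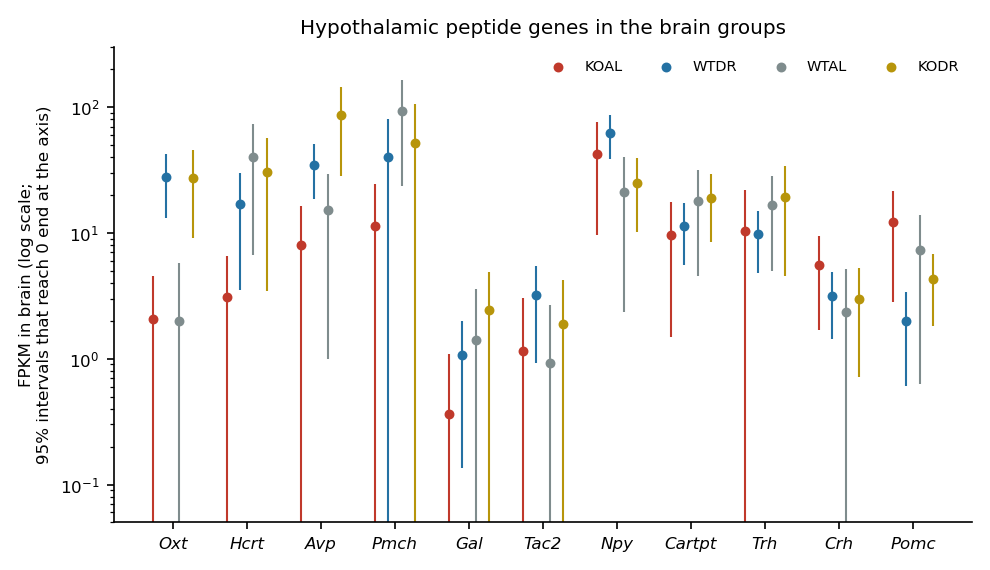
FPKM (y axis, log scale) with the authors' 95% intervals of 11 hypothalamic peptide genes that have an entry of their own, in the 4 brain groups (colours), ordered by log2 difference between KOAL and WTDR. Oxt is near 2 in KOAL and WTAL and near 28 in WTDR and KODR, and Pomc is lowest in WTDR.

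Among genes of other tissues, 1 of 10 tested skeletal muscle genes and 2 of 7 tested red blood cell genes were called. Over all tested entries 0.577% were called, and 64.8% had higher values in KOAL. Ckm, the creatine kinase of skeletal muscle, was called higher, with 8.46 (2.34 to 14.6) in KOAL and 0.615 (0 to 1.26) in WTDR, 0.0320 in WTAL and 0.470 in KODR (log2 difference 3.78, SE 0.92). Of the 10 tested skeletal muscle genes 9 had higher values in KOAL, with a median of 1.89. Myh4, the fast myosin heavy chain, had 1.18 and 0.264 and was among those just outside the FDR, and Acta1, skeletal actin, had 21.9 and 7.15. The summed FPKM of the 12 muscle genes was 50.7 in KOAL, 16.1 in WTDR, 4.42 in WTAL and 11.5 in KODR. Ckm reached 35401 in a group of another tissue. The α-globin genes Hba-a1 and Hba-a2, whose near-identical copies make the division of reads uncertain, were called higher, with 4085 and 4260 in KOAL against 264.5 and 298.5 in WTDR (log2 differences 3.95, SE 1.00, and 3.83, SE 1.08). The KOAL intervals reached down to 0, and Hba-a2 did not pass without the short RNAs. Hbb-bt (471.2 and 98.3) and Alas2 (30.4 and 4.03), also genes of red blood cells, did not pass, and the 7 tested genes of that list had a median of 2.26.

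No liver gene was called, where 0.577% of all tested entries were. All 9 tested had lower values in KOAL, with a median of -3.15, while 64.8% of all tested entries had higher ones. Alb, serum albumin, had 0.120 (0 to 0.389) in KOAL and 5.22 (2.77 to 7.67) in WTDR, and Apoa1 0.425 and 6.47. The joined entry that holds Trf, a gene that oligodendrocytes express as well, differed least (-0.21). The part of muscle, blood or liver RNA in the other results was not tested.

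Genes of brain regions and cell types gave at most 1 call on each list below. With 0.577% of all tested entries called, such counts on short lists say little about a region or cell type. Values were higher in KOAL for 64.8% of all tested entries. Neurod6, a transcription factor of cortical and hippocampal pyramidal neurons, had 34.0 in KOAL and 12.6 in WTDR (log2 difference 1.44, SE 0.40), with 13.3 in WTAL and 15.5 in KODR, and was the 1 called gene of the 19 tested on its list (median 0.42). Olfactory bulb genes had a median of 1.28 over 9 tested, with Cdhr1 at 7.06 and 1.92 and Sp8 at 3.15 and 0.797, and 0 called. Cldn11, a claudin of myelin, was called higher with 165.3 and 57.7 (1.52, SE 0.43), and was the 1 called of 23 genes of myelin and oligodendrocytes (median 0.31). Neurod6 and Cldn11 did not pass at an FDR of 5%, with centring on the median or without the short RNAs. Mag (238.4 and 82.2) and Mbp (4391 and 1380), which encode myelin proteins, did not pass, and for these 3 genes WTDR was the lowest of the 4 groups. Astrocyte and microglia genes had 0 called of 15 and 19, with medians of 0.03 and 0.00, below the median of all entries. Catecholamine neuron genes had 9 higher values of 9 and 0 called. Th, tyrosine hydroxylase, had 6.39 in KOAL and 2.13 in WTDR, both below its 20.6 in WTAL and 12.1 in KODR (log2 difference 1.59, SE 0.64).

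Genes of insulin and IGF signalling did not pass. Over all 15255 tested entries, 479 higher and 61 lower ones had a p under 0.05 before adjustment. Of the 40 tested entries on this list, 27 had higher values in KOAL, with a median of 0.24. Both are near those of all tested entries, of which 64.8% had higher values, with a median of 0.18. As 0.577% of all tested entries were called, 0 calls among 40 are no result about this list. Of these 40, 5 had such a p, all higher. Besides Irs1 these were Igfbp6, an IGF-binding protein (86.7 and 34.9, log2 difference 1.31, SE 0.39), Gsk3a (129.9 and 74.2), Eif4ebp2 (19.7 and 9.99) and Pik3r2 (91.7 and 43.6). Irs2, the paralog of Irs1, had 28.0 and 18.5, and the insulin receptor gene Insr 6.69 and 4.36. The log2 differences were 0.60 (SE 0.49) and 0.62 (SE 0.66), and neither gene was called.

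Of 87 tested entries with cytosolic ribosomal protein genes, 3 were called higher, 0 lower, and 69 had higher values, with a median of 0.59. For all tested entries, 0.485% were called higher, 64.8% had higher values and the median was 0.18. Rpl14 had 495.3 and 138.5 (log2 difference 1.84, SE 0.49), Rpl37 91.7 and 22.8 (2.01, SE 0.55), and the entry joining Rpl10 and Snora70 110.5 and 30.8 (1.84, SE 0.50). Rpl37 and Rpl10 were also lower in WTAL and KODR (11.6 and 15.6, and 19.2 and 20.3) than in KOAL. With the differences centred on the median of all entries these 3 no longer passed, nor did Rpl37 and the Rpl10 entry without the short RNAs, and the many pseudogenes of this family make the division of reads uncertain. Nuclear respiratory chain genes had a median of 0.23 over 80 tested and 0 called. Mitochondrially encoded genes had -0.23 over 10 and 0 called, but stood apart in level, at a summed FPKM of 71379 in KOAL and 83764 in WTDR against 12607 in WTAL and 16934 in KODR. Mt-Co2, for instance, had 5699, 7557, 1266 and 1560. The compared groups both had a high level of mitochondrial transcripts, whose part in the other values was not tested.

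Among response genes, Fosb was the 1 called of 25 immediate early genes (median 0.35). Junb had 105.6 and 50.2 and Plk2 20.8 and 42.2, in opposite directions and neither called. Cdkn1a was the 1 called of 18 genes of the glucocorticoid and fasting response, of which 16 had higher values in KOAL (median 0.86). By comparison, 64.8% of all tested entries had higher values (median 0.18) and 0.577% were called. At that share, 0 or 1 call on lists this short says little. Mt1, metallothionein 1, had 297.4 and 127.6, Sgk1 41.6 and 16.9, and Klf9 78.3 and 41.9, none of which passed. Circadian clock genes (median -0.01 over 16), sterol synthesis genes (0.05 over 19) and chaperone genes (0.27 over 19) had 0 called. Over all 15255 tested entries, an unadjusted p under 0.05 was found for 479 higher and 61 lower ones. Among the lists with 0 called, it was found for 2 genes each, all higher, of the olfactory bulb (9 tested), catecholamine neuron (9), pan-neuronal (13), glutamate and GABA receptor (37), nuclear respiratory chain (80) and chaperone (19) lists. It was found for 1 gene each, also higher, of the cholinergic neuron (9), cerebellum (14), hindbrain (2), endothelial (19), meningeal (15) and adipocyte (1) lists, and for 2 of 9 liver genes, both lower. After centring on the median of all entries, the medians of the cerebellum, astrocyte, microglia, meningeal, pan-neuronal, glutamate and GABA receptor, sterol, antigen presentation and sex chromosome lists turned negative.

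**Figure D5:**
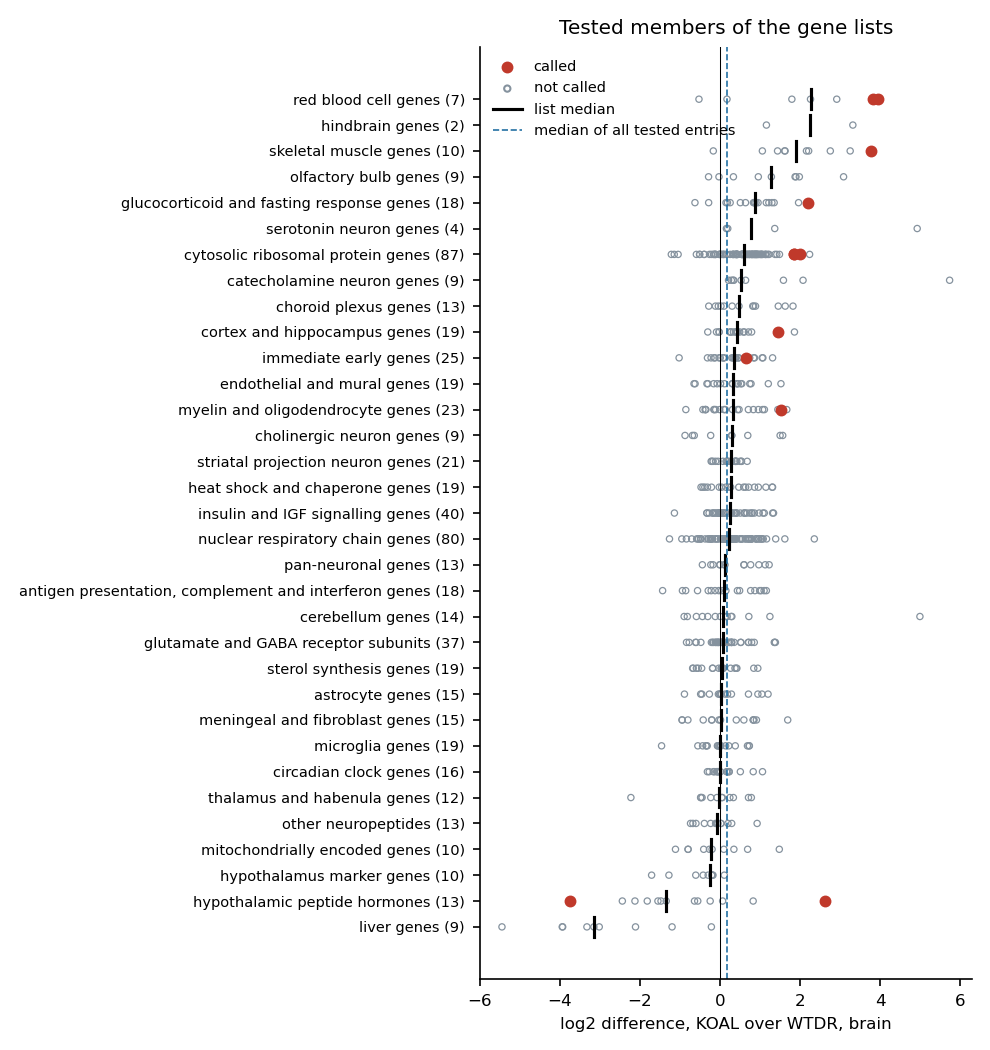
Log2 difference between KOAL and WTDR brain (x axis) of the tested members of each gene list (rows, with the number tested), called members filled. Black bars are list medians and the dashed line is the median of all tested entries, 0.18. Red blood cell and skeletal muscle genes lie to the right, liver and hypothalamic peptide genes to the left.

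At the FDR limit the values were continuous. The 3 called entries with the highest p were Pomc, Snora21 and mt-Tr, and the 3 next were Igsf21 (75.8 and 31.3), the pseudogene Gm5921 (112.4 and 31.4) and Myh4. Of those with lower values, the snoRNA gene Gm26336 (48.4 and 60.1) came next. A further 295 entries had an FPKM of at least 1 in 1 group and were listed at 0 in the other, 148 in KOAL and 147 in WTDR. They were not tested, and 226 of them are short RNA genes.

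The same contrast was measured in liver, skeletal muscle and WAT, and the difference between tissues was tested for each gene. In WAT, WTDR had only 2 libraries. The brain difference departed from that in liver for 11 of 11660 entries tested in both (0.0943%), from that in skeletal muscle for 22 of 12187 (0.181%), and from that in WAT for 22 of 12935 (0.17%). Of the 34 protein-coding genes called in brain, 20 were tested against liver and 23 against each of the others. Gm20721 departed from all 3 tissues, Tmem192 from skeletal muscle and Lrrc17 from WAT. Lrrc17 had a log2 difference of 4.95 in brain and -0.53 (SE 0.84) in WAT. Oxt was tested in no other tissue. Pomc was tested in WAT alone, where its difference was 2.44 (SE 1.17), and was not found to depart from it.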

How the data were processed

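RNA was sequenced by the authors on an Ion Proton after poly-A selection. Per the labels and the study's methods, reads were trimmed with cutadapt 1.5, aligned to GRCm38 and summarised with Cuffdiff 2.2.1 with correction for multiply mapped reads. The deposited table holds an FPKM for each of 16 groups with a 95% interval and a status. Only these pooled values were analysed, so no SD between mice was computed and the depth is unknown. The authors removed short reads and selected poly-A RNA, which limits the values of short RNA genes.

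The SD of a value was set to the distance from the FPKM to its upper bound over 2. Log2 ratios without a pseudocount were compared by a two-sided Wald test (SE by the delta method, normal reference), with Benjamini-Hochberg adjustment over all 15255 entries at an FDR of 10%. Differences between tissues were tested with SEs added in quadrature. Whether the error rate of the Wald test holds for SDs taken from so few libraries, or for very narrow intervals, was not tested. Joined entries (873 in the table, 655 tested) carry a single value for several genes, and the strand setting of the counting is not given in the sources used here. Gene kinds, positions and snoRNA sequences are those of GENCODE M21 (GRCm38). Computation used Python 3.11.15, numpy 2.4.6, pandas 2.3.3, scipy 1.17.1 and matplotlib 3.10.9.

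The comparison, the gene lists (36) and the tests were chosen with earlier results of these data known. The rule for named genes took Irs1, the 15 entries called higher with the greatest log2 difference among those at an FPKM of 1 or more on both sides, all called lower and the next below them, called list members or else those of lowest p and highest FPKM, and the 3 entries on either side of the FDR limit. Other called genes, list members outside the rule, and the steps in the snoRNA values were picked after their values were seen. The values of 1 called protein-coding gene are not reported here.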

Additional observations from a re-analysis of the deposited data

Results flagged for a closer look

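The results here are brain differences that departed from the same contrast in another tissue by the Wald test of the difference itself, adjusted over all entries tested in both tissues. Values are the log2 difference in brain minus that in the other tissue.

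Against WAT, where WTDR had only 2 libraries, Lrrc17 departed by 5.47 (SE 1.12) and the pseudogene Gm11249 by 3.51 (SE 0.93). Snord82 departed by 4.63 (SE 0.42), with 2.41 in brain and -2.22 in WAT, and the snRNA gene Rnu2-10 by 7.57 (SE 1.97). The entry joining Mir700 and Rcan3 departed by -2.40 (SE 0.44). Against skeletal muscle, Tmem192 departed by 2.16 (SE 0.51), with 2.55 in brain and 0.38 in muscle.

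Among short RNAs, Snord100 departed by -4.23 (SE 0.32) from liver and -2.74 (SE 0.34) from skeletal muscle, Gm23924 by 1.85 (SE 0.38) and 1.91 (SE 0.36), and mt-Th by -1.25 (SE 0.05) and -1.50 (SE 0.04). Gm22756 departed by -1.70 (SE 0.29) from skeletal muscle. Gm20721, whose SE was the lowest of all entries tested in brain, departed by -0.72 (SE 0.01) from liver, -0.13 (SE 0.01) from skeletal muscle and -0.59 (SE 0.01) from WAT.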

How the results depend on the processing

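No paired analysis was possible because the table holds 1 value per group, and for the same reason no library was left out in turn. The linear scale and interval overlap were not run for differences between tissues. Against 74 higher and 14 lower entries, 12 list members called, and 11, 22 and 22 departures from liver, skeletal muscle and WAT, a t distribution gave 5, 1, 0, 3, 2 and 2, and the SD divided by the square root of the libraries 880, 126, 94, 135, 260 and 414. Centring on the median left 44 higher and 4 on lists, the linear scale 43 and 3, and an FDR of 5% 6 on lists. Intervals that do not overlap gave 31 lower, and a 2-fold minimum 7 lower. Pseudocounts of 0.1 and 1 gave 39 and 35 departures from WAT.

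Chosen after the data were seen, leaving out short RNAs gave 21 higher, 5 lower, 5 on lists, and 5 and 13 departures from liver and skeletal muscle, and a minimum SD at the group's median gave 2, 0 and 0, with 2, 4 and 0 departures; at an unadjusted p under 0.05 the latter had 191 higher and 22 lower. With a t distribution 165 were higher and 23 lower at an unadjusted p under 0.05. Irs1 passed with the SD divided by the square root of the libraries (log2 difference 1.11, SE 0.30). Of 34 called protein-coding genes, 0 kept their call under all alternatives; of 117 genes followed by name, called or not, 52 lost a call with a t distribution and 26 with centring. A minimum FPKM of 5 gave no value for Irs1. Krt17, Ccdc36, Ckm, Wnt6 and Rnu2-10 rest on an FPKM under 1 in WTDR.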
